A study of Mus musculus with 32 samples.

Results

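The genes analysed here are 9 genes that set the level of retinoic acid in a tissue or read it out, namely Stra6, Aldh1a1, Aldh1a2, Aldh1a3, Crabp1, Crabp2, Rarb, Cyp26a1 and Cyp26b1. They were found by gene name in the array files, which gave 11 probes of the 55681 mouse probes on each array, with 3 probes for Rarb and 1 for every other gene. Cyp26b1 was chosen by its measured values, since its level rose with antimiR-34a in 85% O2 at P5, and its value in that comparison is therefore given as a description with no test. The other 8 genes were added as members of its pathway.

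The arrays measured whole-lung RNA of newborn mice in 8 groups of 4 mice, 1 mouse per array. All mice were wild-type C57Bl/6J mice per the methods of the study. Each had received either antimiR-34a, a locked nucleic acid oligonucleotide that binds the microRNA miR-34a, or a scrambled antimiR with no target (SCR), by intraperitoneal injection at P1 and P3, a route that addresses no single cell type. The mice were kept in room air (21% O2) or in 85% O2, a hyperoxia model of bronchopulmonary dysplasia in which alveoli fail to form, and their lungs were harvested at age P5 or P14. The 8 groups are the scrambled antimiR and antimiR-34a in 21% O2 at P5, in 85% O2 at P5, in 21% O2 at P14 and in 85% O2 at P14. Per the methods, mice of both sexes were used, and the sex of each mouse is not given in the sources used here.

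Retinoic acid is made from vitamin A in a chain of steps. STRA6 takes up retinol, retinol dehydrogenases turn it into retinal, and the ALDH1A enzymes oxidise retinal to retinoic acid. CRABP proteins hold the product in the cytosol, RAR receptors on DNA respond to it, and CYP26 enzymes destroy it. In the lung, the pathway is known for its part in the formation of alveoli, and vitamin A has been given to preterm infants to lower the rate of bronchopulmonary dysplasia.

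Retinoic acid receptors bind paired copies of a short motif that are set apart by a few bases, known as retinoic acid response elements. The windows around gene starts in RefSeq (build GRCm38.p6, 300 bases each, from 250 bases upstream) were searched on both strands for 2 copies in the same direction of the motif AGGTCA, which could also start with G and have T in place of its second G, with 1, 2 or 5 bases between them. The table held 11 windows for 7 of the 9 genes and none for Aldh1a3 and Crabp2. The search found a pair in 2 of these windows, those of Rarb and Cyp26a1, both with a spacing of 5 bases. Of all 32851 windows, 0.588% held any such pair and 0.0974% held one with that spacing, so these letters are rare at gene starts. The pairs are shown because both genes are textbook targets of retinoic acid, whose levels follow further on. The sequences run 5′ to 3′ along the gene's strand, and the capitals mark the pair with its spacer.
Rarb, chr14:16575507-16575535, minus strand: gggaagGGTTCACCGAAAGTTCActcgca
Cyp26a1, chr19:37697770-37697798, plus strand: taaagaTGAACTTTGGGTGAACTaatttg
The pair at Rarb lies 53 to 37 bases before the start of the window's transcript. The pair at Cyp26a1 lies 32 to 16 bases before it, on the opposite strand to the gene. No pair was found in the windows of Cyp26b1, Aldh1a1, Aldh1a2, Stra6 or Crabp1.

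The microRNA bound by the antimiR is shown with its seed, bases 2 to 8, in capitals, since the seed decides which transcripts a microRNA can pair with.
miR-34a-5p: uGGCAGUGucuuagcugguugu
The match to this seed, CACTGCC, was present in 250 of the 55681 probe sequences (0.449%) and in 0 of the 11 probes of the 9 genes. Each probe covers 60 bases of its transcript, so the search says nothing about the rest of the transcript.

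Levels are given as log2 of the processed probe intensity minus the 75th percentile of the array, so that a value of 0 is the brightness of the probe at that percentile. Levels of different probes depend on the probe and are not compared. Differences are log2 fold changes from limma, fitted across all probes tested, with Benjamini-Hochberg adjustment at 0.05. Each slide of 8 arrays held 1 age and 1 oxygen level, so that oxygen level, age and slide cannot be told apart. On every slide the scrambled antimiR lay on row 1 and antimiR-34a on row 2, so that antimiR and row cannot be told apart either. The lung epithelial and endothelial markers Sftpc, Sftpb, Scgb1a1, Ager, Pecam1 and Cdh5 were above background on all 32 arrays. In P14 mice in 21% O2, 2 arrays differed from the others of their group in overall brightness, read as the log2 75th percentile. It was 9.344 in scrambled antimiR replicate 4, against 10.124 to 10.177 in its group. In antimiR-34a replicate 1 it was 10.204, against 9.561 to 9.639. Each lay nearer to the arrays of the other antimiR, for a reason that was not tested. Counts without both are given where they changed. In whole-lung RNA, fewer cells of a type and less RNA per cell cannot be told apart.

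Each gene is read on its brightest probe unless said otherwise. In 85% O2, Aldh1a3 was higher, Crabp1 and Cyp26b1 were lower, and Aldh1a1 and Aldh1a2 were higher at 1 of the 2 ages in scrambled antimiR mice. Rarb and Crabp2 did not pass on their brightest probes in those mice. The dimmest probe of Rarb was called lower at P5 and not at P14 (-0.99, adjusted p = 0.0553), with a limit on both tests given below. Of the 9 probes tested apart from Cyp26b1, 2 were called higher and 2 lower in 85% O2 at P5, where 43.9% of all tested probes were called. At P14, with Cyp26b1 counted, 2 of 10 were higher and 3 lower, against 60.9% of all tested probes. With antimiR-34a, 4 of the 9 were higher and 3 lower at P5 (46.6% of all tested probes) and 2 of 10 were higher and 3 lower at P14 (65.5%). Since calls were this common over the whole array, the counts alone say little about the pathway, and the sizes for each gene follow.

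**Figure D1:**
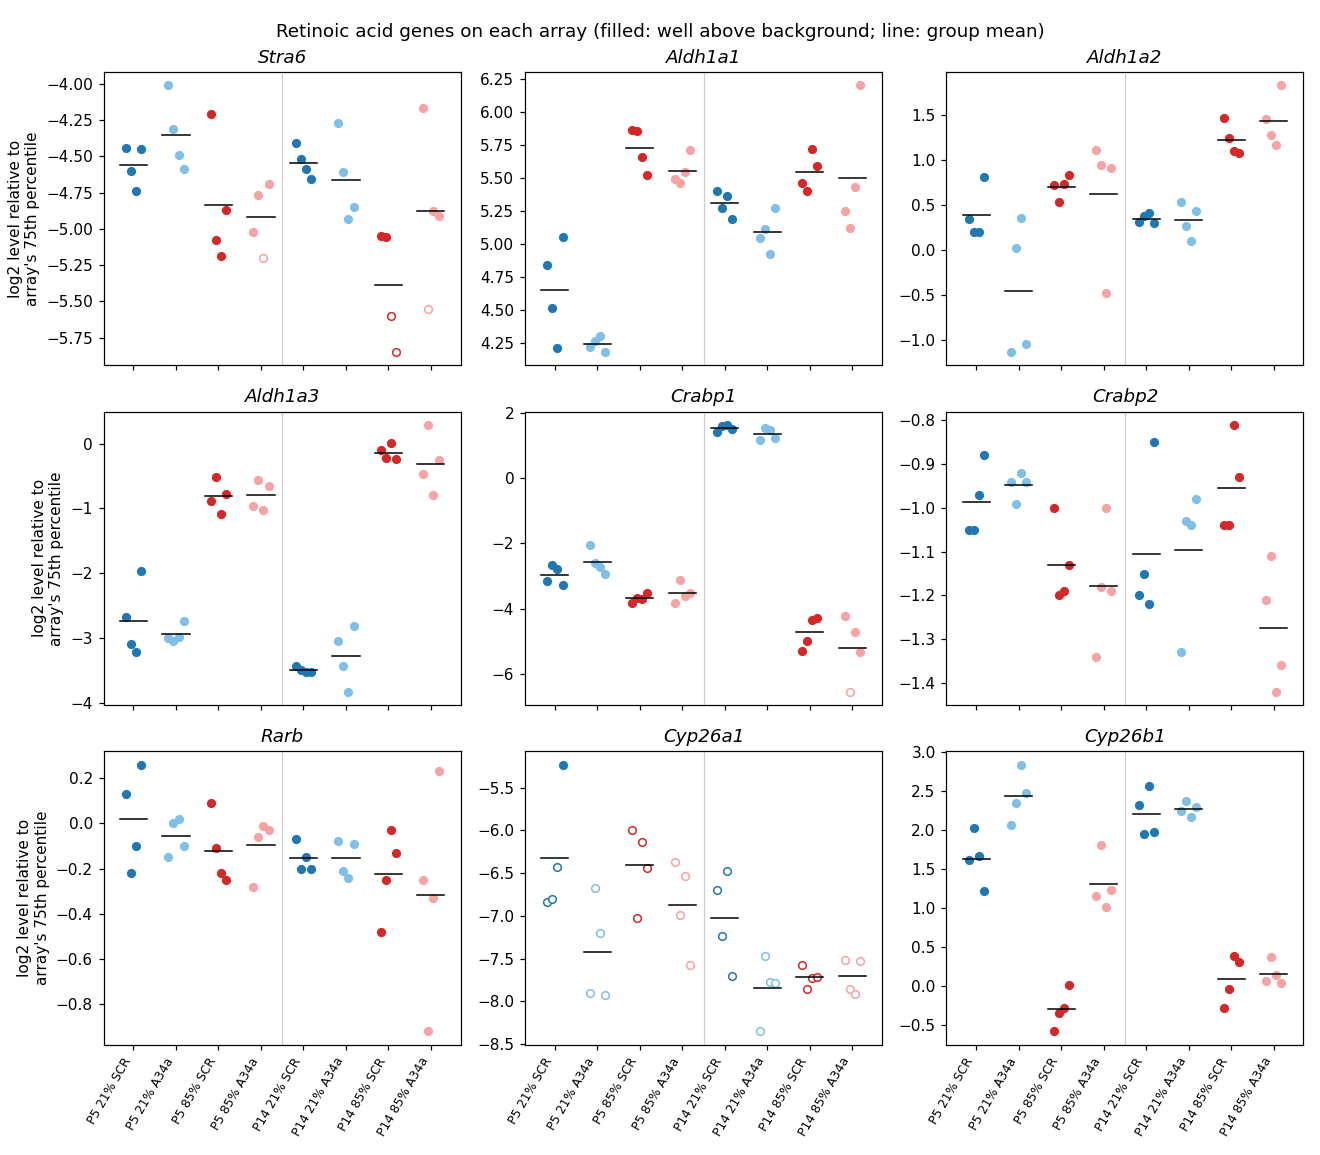
Level of each of the 9 genes on all 32 arrays (y axis, log2 relative to the array's 75th percentile, with a scale of its own for each gene) by group (x axis), blue for 21% O2 and red for 85% O2, darker for scrambled antimiR. Filled points are well above background, open points are not, and lines are means of 4 mice. Aldh1a3 is higher and Crabp1 lower in 85% O2, and Cyp26a1 is above background on 1 array.

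Stra6, the membrane receptor that brings retinol into cells, was dim throughout and above background on 28 of 32 arrays. In scrambled antimiR mice at P14 its level was -4.54 ± 0.11 (SD, n = 4) in 21% O2 and -5.39 ± 0.40 (SD, n = 4) in 85% O2, where 2 of 4 arrays were above background. At P14 only the groups in 21% O2, where it was brighter, had it above background on every array. It was tested at that age through those groups alone, which limits the test. The log2 difference was -0.84 (SE 0.25, adjusted p = 0.0104), and it was 0.08 (adjusted p = 0.708) after normexp background correction, which does not hold the direction. The call was also lost after quantile normalization (-0.36, adjusted p = 0.346) and on the authors' values (-0.36, adjusted p = 0.343). At P5 the difference was -0.28 (adjusted p = 0.251) with scrambled antimiR, and it passed without replicate 1 in 85% O2 (-0.49, adjusted p = 0.018). With antimiR-34a it was -0.57 (adjusted p = 0.0247). The latter was lost without replicate 1 or 2 of antimiR-34a in 21% O2 or replicate 1 or 3 in 85% O2, with adjusted p up to 0.0808, and it was lost under normexp correction (0.0931), quantile normalization (0.208), the authors' values (0.208) and the methods' test (0.0514), and without the 3 arrays low in markers of mesothelium that are described with Aldh1a2 (-0.42, adjusted p = 0.176). At P14 with antimiR-34a it was -0.21 (adjusted p = 0.471).

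Of the enzymes that make retinoic acid, Aldh1a3 moved most. Its levels in scrambled antimiR mice at P5 were -2.68, -3.10, -3.22 and -1.97 in 21% O2 and -0.88, -0.51, -1.08 and -0.78 in 85% O2. At P14 they were -3.43, -3.50, -3.52 and -3.52 in 21% O2 and -0.10, -0.22, 0.01 and -0.24 in 85% O2. All mice in 85% O2 were above all mice in 21% O2 at both ages. The fold change was 3.81 at P5 (log2 1.93, SE 0.22, adjusted p = 1.14e-05) and 10.2 at P14 (log2 3.36, SE 0.22, adjusted p = 4.03e-08). After normexp background correction the P14 log2 difference was 2.75. The effect of oxygen was larger at P14 than at P5 by 1.43 on the log2 scale (SE 0.32, adjusted p = 0.000951). With antimiR-34a, the log2 difference between oxygen levels was 2.14 at P5 and 2.98 at P14 (2.40 after normexp correction), and again no array of one oxygen level reached the other.

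Aldh1a1, an abundant retinal dehydrogenase of epithelial cells, rose in 85% O2 at P5. Its levels with scrambled antimiR were 4.84, 4.51, 4.21 and 5.05 in 21% O2 and 5.86, 5.85, 5.66 and 5.52 in 85% O2, so that the groups did not overlap. The log2 difference was 1.07 (SE 0.14, adjusted p = 4.18e-05) with scrambled antimiR and 1.31 (SE 0.14, adjusted p = 5.98e-06) with antimiR-34a. At P14 it was 0.24 (adjusted p = 0.268) and 0.41 (adjusted p = 0.0574). The latter passed the threshold without replicate 1 (0.50, adjusted p = 0.0386) or replicate 2 (0.54, adjusted p = 0.0189) of antimiR-34a in 85% O2, and it was 0.18 (adjusted p = 0.155) without replicate 4, which at 6.20 stood above the 5.12 to 5.43 of the other 3 mice. In scrambled antimiR mice the effect of oxygen was smaller at P14 than at P5, with a log2 difference of -0.83 (SE 0.24, adjusted p = 0.00637). Aldh1a1 itself was higher at P14 than at P5 in 21% O2 by 0.65 (adjusted p = 0.00202), a call that the methods' test did not make (adjusted p = 0.0728).

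Markers of several cell types moved in the same comparisons in scrambled antimiR mice. The type I pneumocyte genes Aqp5, Ager, Hopx and Pdpn, which mark the flat cells of gas exchange, were all 4 called higher in hyperoxia at P5, as were 3 of them at P14. Their marker score, the mean over the listed genes of the log2 level minus its mean over all arrays, was -0.74 to -0.51 in 21% O2 and -0.06 to 0.00 in 85% O2 at P5, and 0.04 to 0.14 and 0.46 to 0.58 at P14. Of the macrophage genes Marco, Chil3, Mrc1 and Cd68, 3 rose at P5. At P14 the calls were 3 upward and 1 downward. Their scores in the same order were -1.23 to -0.87 and -0.73 to 0.13 at P5, and 0.23 to 0.63 and 0.49 to 1.34 at P14, with overlap at P14 alone. Of the lipofibroblast genes Plin2, Tcf21, Fgf10, Lpl and Pparg, 3 rose and 1 fell at P5, with scores of -0.20 to -0.10 in 21% O2 and -0.04 to 0.26 in 85% O2. Their P14 scores overlapped (-0.15 to 0.20 and -0.07 to 0.10), with 1 gene up and 2 down. Genes of club cells, secretory cells of the airways (Scgb1a1, Scgb3a1, Scgb3a2 and Cyp2f2), gave 0 calls up and 1 down at P5 and 1 up and 2 down at P14. The genes of these 4 lists were above background on every array. Further lists moved too. Scores of myofibroblasts (Pdgfra, Acta2, Tagln and Fgf18) were 0.07 to 0.14 in 21% O2 and -0.45 to -0.38 in 85% O2 at P5. Those of type II pneumocytes (Sftpc, Sftpb, Sftpa1, Lamp3, Abca3 and Slc34a2) were 0.17 to 0.27 and -0.15 to 0 at P14. Of the 6 heart muscle genes Myh6, Tnnt2, Actc1, Nppa, Myl7 and Myl4, 5 were lower at P5.

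In every group apart from the scrambled antimiR mice at P5, the mouse highest in Aldh1a1 was also highest in club cell score. Of those mice in 85% O2, replicate 1 had the highest Aldh1a1 (5.86) and replicate 2 the highest club cell score (-0.45). Replicate 4 of antimiR-34a in 85% O2 at P14, the array with Aldh1a1 at 6.20, had a club cell score of 1.53, against -0.52 to -0.23 on its 3 companions. Its type I pneumocyte score was -0.14, against 0.39 to 0.76. Its fat cell score was 2.35, against -2.64 to -1.95, and its heart muscle score 1.02, against -1.76 to -0.63. Among scrambled antimiR mice in 21% O2 at P5, replicates 1 and 4 had the highest Aldh1a1 (4.84 and 5.05) and the highest club cell scores (1.21 and 1.04, against 0.02 and -0.55 in the others). Their heart muscle scores were 1.54 and 1.26, against -0.08 and -0.43 in the others. The part of these cells in the values of Aldh1a3 and Aldh1a1 was not tested.

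Aldh1a2, the main retinoic acid synthase of mesoderm and of mesothelium, showed the other order. In scrambled antimiR mice at P14 its levels were 0.31, 0.38, 0.41 and 0.30 in 21% O2 and 1.47, 1.24, 1.10 and 1.08 in 85% O2. The groups did not overlap, with a log2 difference of 0.87 (SE 0.14, adjusted p = 9.29e-05), and with antimiR-34a it was 1.10 (SE 0.14, adjusted p = 1.07e-05). At P5 with scrambled antimiR the difference was 0.31 (adjusted p = 0.506). The difference of the oxygen effect between ages was 0.56 (SE 0.40, adjusted p = 0.268), so the ages were not shown to differ. That difference passed when only the groups compared were fitted (adjusted p = 0.0228).

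At P5 with antimiR-34a, Aldh1a2 varied widely between mice. Its levels were -1.13, 0.02, 0.36 and -1.04 in 21% O2 and 1.11, 0.94, -0.48 and 0.91 in 85% O2. The log2 difference between oxygen levels was 1.07 (SE 0.36, adjusted p = 0.0246). It was lost without replicate 1 or 4 in 21% O2 or replicate 1, 2 or 4 in 85% O2, where the adjusted p lay between 0.0649 and 0.0815. It was also lost when only the groups compared were fitted (0.0834) and under the methods' test (0.162). The 3 arrays with levels below 0 were low in markers of mesothelium, the cell sheet that covers the lung. The marker score over 7 genes was -1.80 and -1.59 on replicates 1 and 4 in 21% O2 and -1.78 on replicate 3 in 85% O2. Replicate 3 in 85% O2 was also the dimmest of all 32 arrays (log2 75th percentile 9.204, against 9.769 to 9.929 on the other 3 of its group). On the other 29 arrays the score was at least -0.62 and Aldh1a2 at least 0.02. Without these 3 arrays the log2 difference was 0.80 (adjusted p = 0.0048). All 7 mesothelial genes were above background on every array of the other 6 groups, 6 of them in antimiR-34a mice in 21% O2 at P5 and 5 in 85% O2 at P5. At P14 with scrambled antimiR, where Aldh1a2 was higher in 85% O2, the mesothelial markers went the other way. Of the 7 genes, 4 were called lower and 1 higher, and the score was 0.28 to 0.45 in 21% O2 and -0.62 to 0.26 in 85% O2. With antimiR-34a at P14, 1 was called lower and 1 higher, and the scores overlapped (0.19 to 0.67 in 21% O2 and -0.34 to 0.62 in 85% O2). The part of the mesothelium in the values of Aldh1a2 was not tested beyond these levels.

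Crabp1, which binds retinoic acid in the cytosol and is known to carry it to CYP26 enzymes, had the largest oxygen difference of the 8 genes tested. Its levels with scrambled antimiR at P14 were 1.42, 1.59, 1.64 and 1.50 in 21% O2 and -5.29, -4.99, -4.35 and -4.29 in 85% O2. The fold change was 77.1 (log2 -6.27, SE 0.37, adjusted p = 1.86e-08), and with antimiR-34a the log2 difference was -6.56 (SE 0.37, adjusted p = 1.19e-08), where 3 of 4 arrays in 85% O2 were above background. After normexp background correction the log2 differences were -4.70 and -4.65, smaller but still called. No array in 85% O2 came near those in 21% O2.

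At P5, Crabp1 had not yet reached that level. With scrambled antimiR it stood at -3.14, -2.66, -2.79 and -3.29 in 21% O2, and it was higher at P14 than at P5 by 4.51 on the log2 scale (22.7-fold, SE 0.31, adjusted p = 1.87e-11). In 85% O2 at P5 the levels were -3.82, -3.68, -3.70 and -3.52, below all of those in 21% O2 (log2 -0.71, SE 0.19, adjusted p = 0.00812). With antimiR-34a the difference was -0.94 (adjusted p = 0.00114). The scrambled antimiR difference was -0.48 after quantile normalization (adjusted p = 0.0805). The effect of oxygen at P14 differed from that at P5 by -5.56 on the log2 scale (SE 0.43, adjusted p = 1.37e-09), and by -4.27 after normexp correction.

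Markers of fat cells moved with Crabp1. The score over Adipoq, Cfd, Plin1, Car3 and Cidec was 3.02 to 5.91 with scrambled antimiR and 2.63 to 6.51 with antimiR-34a in 21% O2 at P14. In 85% O2 it was -2.90 to -2.33 with scrambled antimiR and -2.64 to 2.35 with antimiR-34a, and 5 of 5 genes were called lower in 85% O2 in scrambled antimiR mice at P14. All 5 were above background on every array in 21% O2 at P14, against 1 in 85% O2. Within the 8 arrays in 21% O2 at P14, Crabp1 stayed between 1.17 and 1.64. In antimiR-34a replicate 4 in 85% O2, the array with the score of 2.35, Crabp1 stood at -5.33. At P5 the scores were -1.11 to 0.74 in 21% O2 and -2.18 to -1.82 in 85% O2 with scrambled antimiR. Fat was not alone in scrambled antimiR mice at P14. Scores of heart muscle were 0.75 to 1.64 in 21% O2 and -1.02 to 0.22 in 85% O2. In the same order those of skeletal muscle were 0.01 to 2.05 and -0.74 to -0.40, and those of club cells 0.97 to 1.22 and -0.69 to 0.25. Scores of type I pneumocytes were higher in 85% O2, as given above. The part of fat tissue or of these other cells in the values of Crabp1 was not tested beyond these levels.

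**Figure D2:**
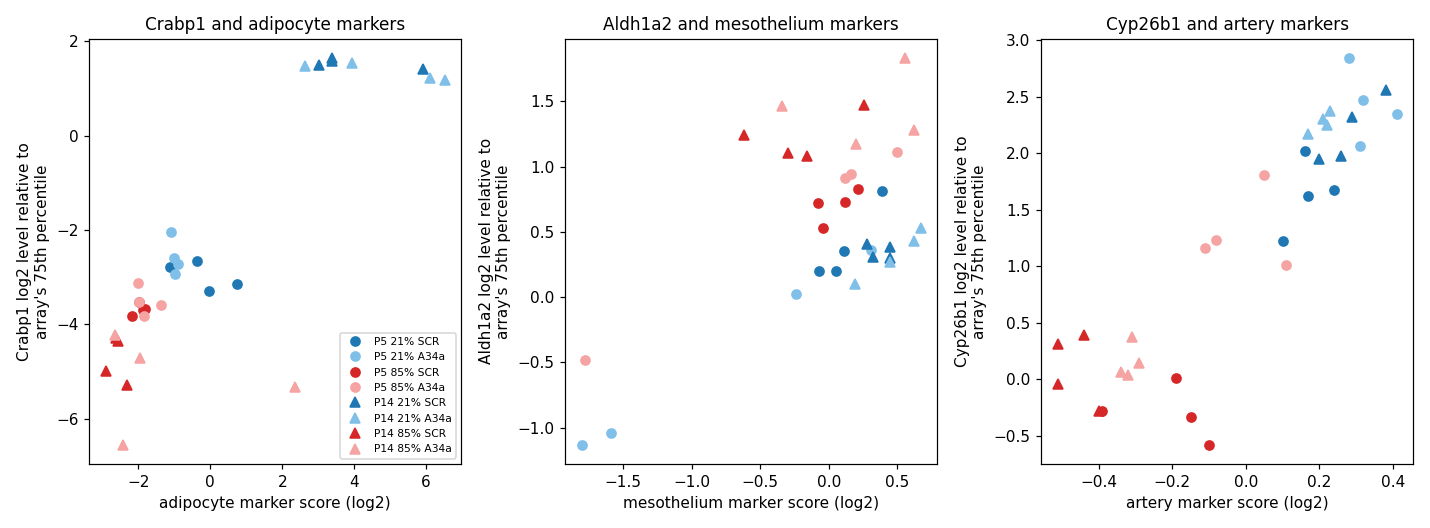
Level of Crabp1, Aldh1a2 and Cyp26b1 (y axes, log2 relative to the array's 75th percentile) against the score of adipocyte, mesothelium and artery markers (x axes, mean log2 level minus the mean over all arrays) on 32 arrays. Circles are P5, triangles P14, blue is 21% O2, red 85% O2, and lighter shades are antimiR-34a. The 3 arrays lowest in mesothelial markers are the 3 lowest in Aldh1a2, and the array of P14 mice in 85% O2 with an adipocyte score of 2.35 has Crabp1 at -5.33.

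Crabp2, the relative that is known to carry retinoic acid to receptors in the nucleus, kept group means between -1.27 and -0.95. Only in antimiR-34a mice at P5 did it pass for oxygen, with a log2 difference of -0.23 (SE 0.07, adjusted p = 0.0188), lost without replicate 1 in 85% O2 (-0.17, adjusted p = 0.0648). It was also lost after quantile normalization (adjusted p = 0.06), on the authors' values (0.0585) and under the methods' test (0.0974). At P14 with scrambled antimiR the difference was 0.15 (adjusted p = 0.24) and with antimiR-34a -0.18 (adjusted p = 0.148). The first became 0.23 (adjusted p = 0.0353) and the second -0.26 (adjusted p = 0.0192) without the 2 arrays of unusual brightness.

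Rarb, the receptor gene whose window holds the response element shown above, stayed close to level on its brightest probe. Group means lay between -0.32 and 0.02, and the oxygen differences with scrambled antimiR were -0.14 at P5 (95% confidence interval -0.37 to 0.09, adjusted p = 0.304) and -0.07 at P14 (-0.44 to 0.31, adjusted p = 0.758). The 3 probes of Rarb disagreed. The second probe differed in antimiR-34a mice at P5 (0.45, adjusted p = 0.0308). That call was lost with no filter (0.0547), under the methods' test (0.0819), with a replicate block (0.0557) and without the 3 arrays low in mesothelial markers (0.181). It was also lost without replicate 2 or 4 in 21% O2 or replicate 2 in 85% O2, where the adjusted p lay between 0.0722 and 0.0995. The dimmest probe was assigned by its accession to another transcript. At both ages only the groups in 21% O2 had it well above background on every array. It was thus tested only through the groups where it was brighter, and its calls are no support for a change. With scrambled antimiR the difference between oxygen levels was -0.81 at P5 (adjusted p = 0.00728) and -0.99 at P14 (adjusted p = 0.0553). The P5 difference did not pass after normexp correction (-0.23, adjusted p = 0.133), after quantile normalization (-0.46, adjusted p = 0.0593) or on the authors' values (-0.46, adjusted p = 0.0586). The P14 difference passed with a replicate block (adjusted p = 0.0342), with only the groups compared (0.0161) and without replicate 2 in 21% O2 (0.0437). After normexp correction it was 0.07 (adjusted p = 0.828). With antimiR-34a at P14 that probe was not well above background on any array in 85% O2. As a description, it was at least 3.72-fold lower there. The limma adjusted p of 0.000229 has the limit given for this probe, and the call was lost after normexp correction (adjusted p = 0.23). The bound sets the mean of the bright group against the dimmest signal still well above background on each array of the dim group.

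Cyp26a1, the other gene with a response element in its window and a CYP26 enzyme that retinoic acid induces, was well above background on 1 of 32 arrays, that of scrambled antimiR replicate 4 in 21% O2 at P5. That array stood apart in the markers of skeletal muscle, with a score of 5.24 over 8 genes against -0.43 to 0.23 on the other 3 arrays of its group, and the part of muscle in its value was not tested. Cyp26a1 was not tested in any comparison.

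Cyp26b1, the CYP26 enzyme that remained measurable, was above background on all 32 arrays. At P14 its levels with scrambled antimiR were 2.32, 1.95, 2.56 and 1.97 in 21% O2 and -0.28, -0.04, 0.39 and 0.31 in 85% O2. With antimiR-34a they were 2.25, 2.37, 2.17 and 2.30 in 21% O2 and 0.06, 0.37, 0.14 and 0.04 in 85% O2. The groups of the 2 oxygen levels lay well apart. The level was 4.30-fold lower in 85% O2 with scrambled antimiR (log2 -2.10, SE 0.16, adjusted p = 1.49e-07) and 4.34-fold lower with antimiR-34a (log2 -2.12, SE 0.16, adjusted p = 1.33e-07).

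At P5 the groups in 85% O2 were those that chose the gene, and the values are a description. Scrambled antimiR mice had 1.62, 2.02, 1.67 and 1.22 in 21% O2 and -0.58, -0.34, -0.28 and 0.01 in 85% O2, a log2 difference of -1.93. AntimiR-34a mice had 2.06, 2.35, 2.84 and 2.47 in 21% O2 and 1.16, 1.81, 1.01 and 1.23 in 85% O2, a log2 difference of -1.13. In 85% O2, antimiR-34a mice were thus higher by 1.60 on the log2 scale, or 3.03-fold, with no overlap, and they were still below the antimiR-34a mice in room air. In 21% O2 Cyp26b1 was higher at P14 than at P5 by 0.57 (SE 0.19, adjusted p = 0.0145). That call was lost without replicate 4 of the scrambled antimiR at P5 (0.43, adjusted p = 0.0726) or replicate 3 at P14 (0.45, adjusted p = 0.0644), and under the methods' test (adjusted p = 0.0851). The former is the array with the skeletal muscle score of 5.24.

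**Figure D3:**
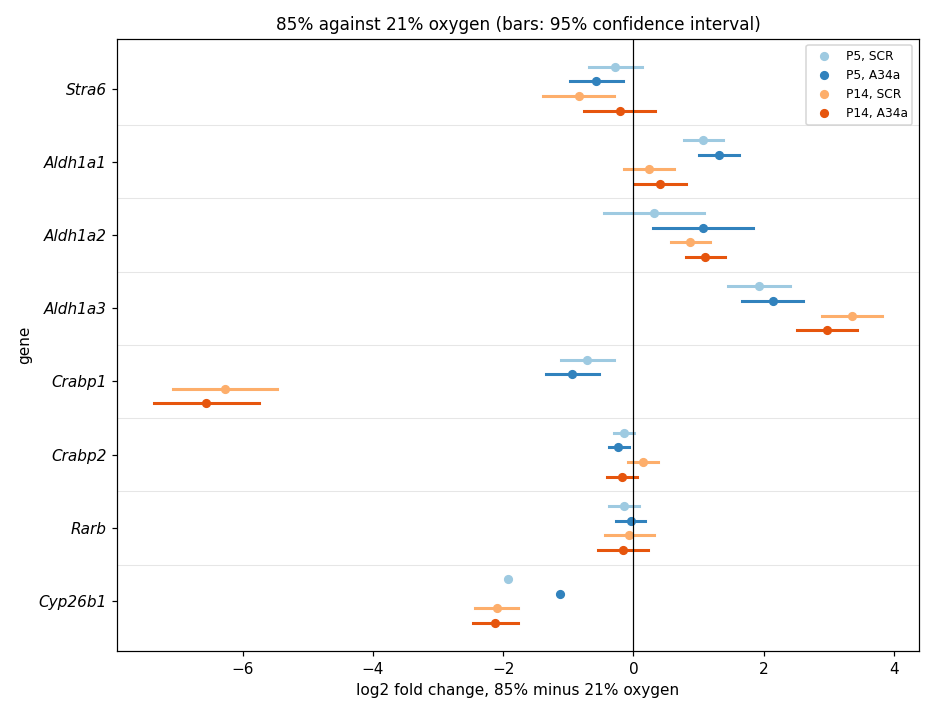
Log2 fold change between 85% and 21% O2 (x axis) for the 8 genes tested (y axis), at P5 and P14 and with each antimiR, in 4 colours. Points are limma estimates and bars 95% confidence intervals, with no bar for Cyp26b1 at P5, whose groups in 85% O2 chose the gene. Crabp1 lies at -6.27 and -6.56 at P14 and Aldh1a3 at 3.36 and 2.98.

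Outside the comparison that chose it, antimiR-34a gave Cyp26b1 a log2 difference of 0.80 in 21% O2 at P5 (95% confidence interval 0.35 to 1.24, unadjusted p = 0.00174, limma adjusted p = 0.112). All 4 antimiR-34a mice were above all 4 scrambled antimiR mice, and the difference did not pass. At P14 the difference was 0.07 in 21% O2 (-0.27 to 0.41, adjusted p = 0.924) and 0.06 in 85% O2 (-0.28 to 0.40, adjusted p = 0.897), with overlapping groups. Whether the effect of antimiR-34a differed between ages was not tested. The effect of antimiR-34a at P14 differed between oxygen levels by -0.01 (95% confidence interval -0.49 to 0.46, adjusted p = 0.984). At P5 the same quantity was 0.80, as a description.

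The other genes did not pass for antimiR-34a. In 85% O2 at P5, limma called 0 of the 9 probes of the other genes, where 0.0639% of all tested probes were called. The methods' test also called 0 of the 9, and 1, the second probe of Rarb, had an unadjusted p under 0.05 (log2 difference 0.40, adjusted p = 0.318). In 21% O2 at P5, limma called 0 of 10 member probes (0.136% of all tested probes), 3 had an unadjusted p under 0.05, and the methods' test called 0. Those 3 were Cyp26b1, Aldh1a1 (-0.41, adjusted p = 0.185) and Aldh1a2 (-0.84, adjusted p = 0.256, and -0.20 without the arrays low in mesothelial markers). In 21% O2 at P14, limma and the methods' test called 0 of 10, where 0% of all tested probes were called, and 0 had an unadjusted p under 0.05. Without the 2 arrays of unusual brightness the count of member probes was again 0, while the share of all tested probes called became 16.8%, and it was 3.14% without the scrambled antimiR array alone. In 85% O2 at P14 both called 0 of 10 (2.67% of all tested probes) and 1 had an unadjusted p under 0.05. Over all tested probes, limma gave an unadjusted p under 0.05 to 4715 of 35982 in 85% O2 at P5. It did so for 6322 of 35982 in 21% O2 at P5, 4033 of 38455 in 21% O2 at P14 and 6356 of 38455 in 85% O2 at P14. The shares of all tested probes called moved widely with the settings. Apart from fits without 1 array, they ran from 0% to 7.75% in 85% O2 at P5, the highest with no filter, from 0.00278% to 1.15% in 21% O2 at P5 and from 0% to 3.74% in 85% O2 at P14. Without 1 array they ran from 0.00554% (without scrambled antimiR replicate 2) to 0.346% (without scrambled antimiR replicate 4) in 85% O2 at P5, from 0.0138% (without antimiR-34a replicate 3) to 0.253% (without scrambled antimiR replicate 3) in 21% O2 at P5, and from 1.24% (without scrambled antimiR replicate 2) to 3.57% (without antimiR-34a replicate 2) in 85% O2 at P14. Under each of these settings 0 member probes were called, with Cyp26b1 left out in 85% O2 at P5.

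The member probe with an unadjusted p under 0.05 in 85% O2 at P14 was that of Crabp2. In 85% O2 at P14 its levels were -1.04, -1.04, -0.81 and -0.93 with scrambled antimiR and -1.21, -1.11, -1.42 and -1.36 with antimiR-34a. The groups did not overlap, and the log2 difference of -0.32 (95% confidence interval -0.55 to -0.09, adjusted p = 0.137) did not pass. For Aldh1a3 the antimiR differences were -0.20 and 0.01 at P5 and 0.21 and -0.17 at P14, in 21% and 85% O2. For Crabp1 at P14 they were -0.18 and -0.48, against spreads of up to 1.00 (SD) within a group.

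**Figure D4:**
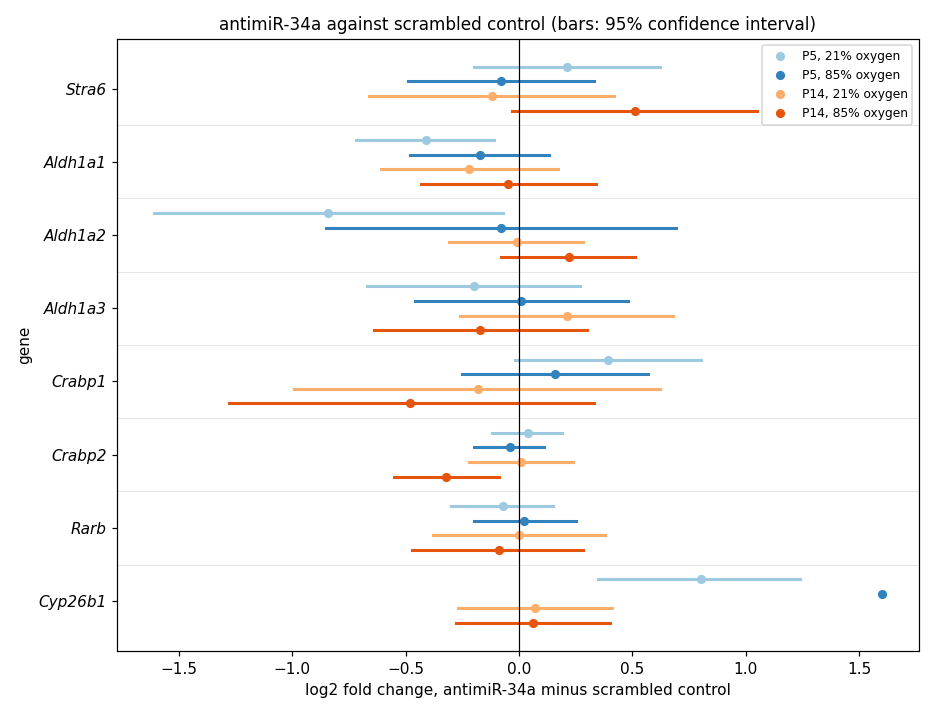
Log2 fold change between antimiR-34a and scrambled antimiR (x axis) for the 8 genes tested (y axis), at P5 and P14 and in each oxygen level, in 4 colours. Points are limma estimates and bars 95% confidence intervals, with no bar for Cyp26b1 in 85% O2 at P5, the comparison that chose it. Cyp26b1 lies at 0.80 and 1.60 at P5 and at 0.07 and 0.06 at P14.

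The effect of antimiR-34a was also compared between oxygen levels. Limma called 0 of 10 member probes at P14 (0.0884% of all tested probes), with 2 at an unadjusted p under 0.05 (5758 of 38455 over all tested probes). Without the 2 arrays of unusual brightness it called 2, Crabp2 (-0.49, adjusted p = 0.0152) and a dimmer probe of Rarb, but 17% of all tested probes were then called too. At P5 it called 0 member probes (0.0556%), with 1 of the 9 probes other than Cyp26b1 at an unadjusted p under 0.05 (3893 of 35982 over all tested probes). The effect of oxygen in scrambled antimiR mice was called different between ages for 3 member probes, those of Aldh1a3, Aldh1a1 and Crabp1 described above, against 40.8% of all tested probes. Between P5 and P14 in 21% O2, 3 member probes were higher and 1 lower at P14 (51.4% of all tested probes). The lower one was Aldh1a3 (-0.75, adjusted p = 0.00727), lost without replicate 4 at P5, the array with the high muscle score (-0.49, adjusted p = 0.0534), and under the methods' test (adjusted p = 0.132).

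The rest of the pathway was followed with a list of 55 other retinoid genes present on the array. In scrambled antimiR mice at P5, 10 of the 42 tested were higher in 85% O2 and 10 lower, where 43.9% of all tested probes were called, with a median log2 difference of -0.07, equal to that of all probes. At P14, 14 of 44 were higher and 12 lower, where 60.9% of all tested probes were called, with a median of 0.03 against -0.07 over all probes. These counts lay near the share over the whole array, and genes changed both ways in each role except clearance, whose 1 gene was not tested.

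Among the genes for uptake, binding and storage, Lrat, the enzyme that stores retinol as retinyl ester, fell by 1.78 on the log2 scale at P14 in 85% O2 (adjusted p = 6.71e-06), having risen by 2.59 from P5 to P14 in room air (adjusted p = 1.92e-09). At P5 its difference was -0.09 (adjusted p = 0.779). Stra6l, a relative of Stra6 that takes retinol bound to its carrier protein, was higher at P14 (1.58, adjusted p = 2.39e-05).

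Of the dehydrogenases, Rdh10, which makes retinal, was lower in 85% O2 at P5 (-0.25, adjusted p = 0.0285) and at 0.28 at P14 (adjusted p = 0.074). Dhrs3, which turns retinal back into retinol, was at 0.10 at P5 (adjusted p = 0.208) and higher at P14 (0.27, adjusted p = 0.0111). Adh1, an alcohol dehydrogenase that oxidises retinol, was higher at P14 (0.93, adjusted p = 5.44e-06).

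Of the receptors, Rara was higher at P5 (0.21, adjusted p = 0.00715) and lower at P14 (-0.23, adjusted p = 0.031), and Rarg was at -0.06 at P5 (adjusted p = 0.541) and lower at P14 (-0.42, adjusted p = 0.00397). Rxrg, a partner of the RAR receptors, was lower at P5 (-0.77, adjusted p = 3e-05). Genes known to be induced by retinoic acid went both ways. Nr2f1, a nuclear receptor gene, was lower at P5 (-0.88, adjusted p = 2.15e-07) and P14 (-1.60, adjusted p = 7.44e-09). Hoxa5, a homeobox gene needed for lung development, was lower at P14 (-1.71, adjusted p = 1.17e-08). Bhlhe40, a repressor that hypoxia and many other signals also induce, was higher (1.44, adjusted p = 1.93e-07, and 2.34, adjusted p = 1.08e-07).

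For antimiR-34a, limma and the methods' test called 0 of these genes in 21% O2 at either age and in 85% O2 at P5, where limma called 2 of 55 with no filter. At an unadjusted p under 0.05 there were 5 of 42 and 4 of 44 in 21% O2 at P5 and P14 and 1 of 42 in 85% O2 at P5. Over all tested probes those counts were 6322 of 35982, 4033 of 38455 and 4715 of 35982. In 21% O2 at P14 limma called 4 of 47 without the 2 arrays of unusual brightness and 3 of 46 without the scrambled antimiR array alone. In 85% O2 at P14, 4 were higher and 0 lower of 44 tested, where 2.67% of all tested probes were called, namely Hoxa5 (0.43, adjusted p = 0.033), Rarg (0.43, adjusted p = 0.0485), Rdh5 (0.31, adjusted p = 0.0379) and Meis1 (0.29, adjusted p = 0.0218). The count fell to 0 under the methods' test, with a replicate block, with no filter, with only the groups compared, and without replicate 2 or 3 of the scrambled antimiR. It was 1 or 2 after normexp correction, quantile normalization, on the authors' values, and without replicate 1, 3 or 4 of antimiR-34a. The median log2 difference of the list was -0.03, against -0.04 over all probes.

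The genes whose levels followed Cyp26b1 most closely over the 32 arrays, among 21119 probes above background on all of them, were Gja4 (Pearson r = 0.90), Lrrc2, Sox17, Scgb2b15 and Narf (each 0.89). The 32 points share slides and group differences, and they include the 8 arrays in 85% O2 at P5 that chose Cyp26b1. Over the other 24 arrays r was 0.93 for Gja4, 0.92 for Lrrc2, 0.94 for Sox17, 0.94 for Scgb2b15 and 0.88 for Narf. After group means were taken out, r was 0.22 for Gja4, 0.10 for Lrrc2, 0.12 for Sox17, 0.09 for Scgb2b15 and -0.12 for Narf, so the likeness lay between groups and not between mice of a group.

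Gja4 and Sox17 belong to the 6 artery markers (with Gja5, Hey1, Dll4 and Bmx), and were found by their likeness to Cyp26b1, so a score that holds them follows it by construction. In P14 mice in 21% O2 the score ranged from 0.20 to 0.38 with scrambled antimiR and from 0.17 to 0.23 with antimiR-34a, and in those in 85% O2 from -0.51 to -0.40 with scrambled antimiR and from -0.34 to -0.29 with antimiR-34a. In P5 mice in 21% O2 it ranged from 0.10 to 0.24 with scrambled antimiR and from 0.28 to 0.41 with antimiR-34a, and in those in 85% O2 from -0.39 to -0.10 with scrambled antimiR and from -0.11 to 0.11 with antimiR-34a. Over the other 4 genes alone, the score of scrambled antimiR mice was -0.02 to 0.18 in 21% O2 and -0.36 to -0.28 in 85% O2 at P14, without overlap. It overlapped between oxygen levels in antimiR-34a mice at P14 (-0.07 to 0.02 and -0.16 to -0.02), in scrambled antimiR mice at P5 (-0.07 to 0.10 and -0.18 to 0.16) and in antimiR-34a mice at P5 (0.18 to 0.30 and -0.03 to 0.22). In scrambled antimiR mice, 3 of the 6 genes were called lower in 85% O2 at P14 and 0 higher, and 3 lower and 1 higher at P5. Of the other 4 genes, 1 was lower and 0 higher at P14, and 1 lower and 1 higher at P5. In antimiR-34a mice, 1 of these 4 was lower and 2 higher at P14, and 2 lower and 0 higher at P5. All 6 were above background on every array. The part of arterial cells in the values of Cyp26b1 was not tested.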

How the data were processed

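Whole-lung RNA of 32 mice was measured on Agilent arrays. Per the file headers, the deposited array files hold spot intensity on a linear scale from Agilent Feature Extraction 10.7.3.1, per array and with local background subtracted. The authors' table holds log2 values, 1 per probe, with the same distribution in every column. The kit for RNA isolation differs between the labels (miRNeasy) and the methods (peqGOLD).

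The log2 processed intensity minus the array's 75th percentile was used. Outlier spots (0.211%) were dropped and repeated spots averaged. A probe was tested if some group of the fit had it well above background on every array, which left 35982 probes for P5, 38455 for P14 and 39162 over both ages. The fit was made with limma 3.58.1 in R 4.3.3 and Benjamini-Hochberg adjustment at 0.05. Arrays of an age were fitted together. A gene was read on its brightest probe. Tests were checked on simulated data. The number of mice limits the precision, and whether they came from separate litters is not given in the sources used here.

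The members, gene lists and rules were chosen with earlier results of these data known. Named from the list of retinoid genes were at most the 4 called with the largest change in each direction, plus Dhrs3, Rdh10, Lrat, Rara and Rarg, and some results are not reported here. Of 13 marker lists written from general knowledge, all but that of red blood cells are given beside a member. Alternatives were normexp (offset 50), quantile normalization, no filter, a filter on every array, only the compared groups, the methods' test (Welch's, adjusted in the same way), a replicate block, the authors' values, 1 probe per gene and leaving out each array. The microRNA arrays and other assays were not analysed here.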

Additional observations from a re-analysis of the deposited data

Results flagged for a closer look

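In 60 groups of 4 arrays, 2 held a level of a gene set apart from its 3 companions by more than Dixon's 95% critical value, a test that chance passes in about 1 group of 20. Aldh1a2 in antimiR-34a mice in 85% O2 at P5 was at -0.48 in replicate 3 and between 0.91 and 1.11 in the others. Crabp2 in antimiR-34a mice in 21% O2 at P14 was at -1.33 in replicate 1 and between -1.04 and -0.98 in the others.

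The effect of oxygen in scrambled antimiR mice differed between P5 and P14 for 3 genes in the limma test of the difference, with Aldh1a1 at -0.83 (adjusted p = 0.00637), Aldh1a3 at 1.43 (adjusted p = 0.000951) and Crabp1 at -5.56 (adjusted p = 1.37e-09).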

How the results depend on the processing

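Counts of member probes leave out Cyp26b1 where its own values chose it. For oxygen in scrambled antimiR mice at P5 the count was 2 after quantile normalization and 2 on the authors' processed values, Aldh1a1 and Aldh1a3 in both. With a filter on every array, which left 7 member probes, it was 3 at P14 with scrambled antimiR and 3 with antimiR-34a. The methods' test called 3 for oxygen in antimiR-34a mice at P5 and 1 between ages. Leaving out each array gave 4 to 7 calls for oxygen in antimiR-34a mice at P5, the lowest without replicate 1 in 85% O2, and 2 to 4 between ages, the lowest without replicate 4 at P5. Same-numbered arrays did not deviate together in a steady way, with correlations from -0.29 to 0.42. Such values cannot show whether the numbers pair mice. With a replicate block 4 probes were called for oxygen in scrambled antimiR mice at P5 and 6 at P14, with no count of member probes changed by over 1.5 times. Stra6 between oxygen levels at P14 with scrambled antimiR reversed to 0.08 after normexp correction and was -0.36 after quantile normalization and on the authors' values, and the cause was not tested. Leaving out the 2 arrays of unusual brightness, or the 3 low in mesothelial markers, was chosen after seeing the data. The former gave 2 calls for the difference of the antimiR effect between oxygen levels at P14. Differences of Aldh1a3, Crabp1 and Cyp26b1 between oxygen levels at P14 kept their direction and call under every alternative and without each array, where they were fitted. Low signal limits Cyp26a1, Stra6 and the dimmest probe of Rarb.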
